A study of Mus musculus with 4 samples.

Results

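The 37 genes described here mark blood vessel endothelium or carry the signals of vessel growth in skeletal muscle. They were chosen by name, as genes of endothelial junctions and surface, endothelial transcription factors, and the VEGF, angiopoietin, apelin, Notch and other vessel signalling pathways. All 37 were found among the 18193 genes named on the arrays, and all 37 were among the 11608 genes whose mean signal reached the median probe set (24.4). A signal is the brightness of a probe set, the group of short probes for 1 transcript, on a linear scale. Where a gene has several, the brightest on average over the arrays is read, and levels were not compared between genes.

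The arrays measured total RNA of the gastrocnemius, a calf muscle rich in fast fibres, in 4 conditions. These were starved muscle-specific FoxO1,3,4 knockout mice, starved control mice, fed knockout mice and fed control mice. Both genotypes were males of a C57BL/6N by FVBN cross and carried floxed alleles of FoxO1, FoxO3 and FoxO4. The knockout also carried Cre recombinase under the MLC1f promoter, which is active in fast fibres, so that type I fibres and cells other than muscle fibres, the endothelium included, keep their FoxO genes. The sample labels call the control wild type. Starved mice went without food for 24 h, and fed mice ate freely. The methods give an age of 2 to 4 months for all experiments of the study. In each condition 6 muscles of 3 mice were pooled in equal amounts on 1 array, so there is no replicate, no test and no p-value, and each difference is a description of 4 pools. The 1.5-fold threshold of the study's methods is used in that sense: "rose" and "fell" below mean a ratio of at least 1.5 in either direction.

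Endothelial cells line every vessel, and in skeletal muscle most of them belong to the capillaries that run along the fibres. Muscle fibres are a main source of VEGF-A, which acts on endothelium through the receptor VEGFR2 and the co-receptor neuropilin 1. Angiopoietin 1, made largely by cells around the vessel, acts on the receptor TIE2 and keeps vessels quiet and tight, while apelin acts on its receptor during vessel growth. In a whole-muscle extract, fewer endothelial cells and less RNA per endothelial cell cannot be told apart.

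**Figure D1:**
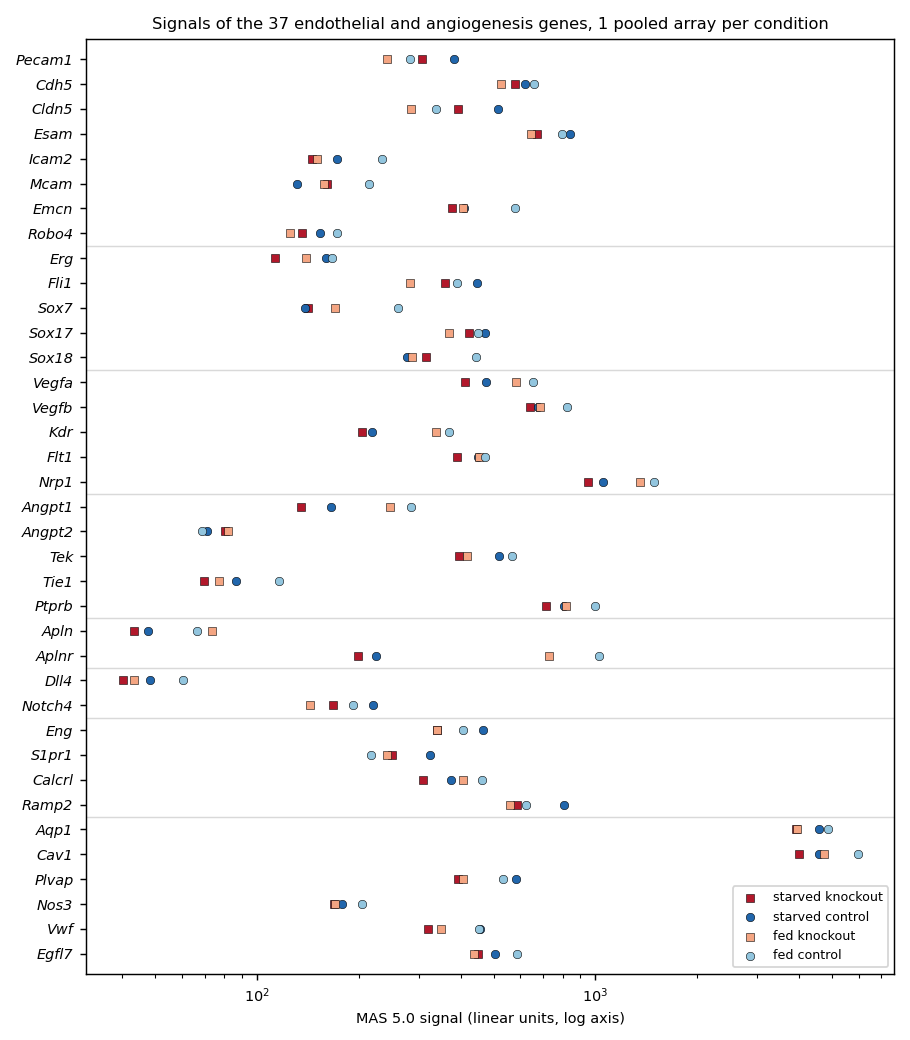
MAS 5.0 signal, on a log axis, of the 37 genes in rows grouped by role, with squares for knockout and circles for control and darker fill for starved muscle. Each point is 1 pooled array, so there are no error bars; the fed control array is the highest of the 4 for 24 genes and the starved knockout array for 0.

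Several facts of the arrays bear on every value. The Foxo4 signal was 34.3 and 31.3 on the starved and fed knockout arrays, against 291.3 and 296.9 on the starved and fed control arrays, and Foxo1 was at 165.5 and 185.2 on these knockout arrays, against 554.4 and 303.8 on these control arrays. Foxo3 was at 460.9 and 297.3 on the starved and fed knockout arrays, against 477.8 and 250.1 on the control arrays; where its probe set lies relative to the deleted part was not analysed here. The knockout arrays were dimmer, with median signals of 22.9 (starved) and 23.8 (fed), against 26.0 and 26.3 on the control arrays. Over the 11608 genes the median log2 ratio of knockout over control was accordingly -0.16 in starved and -0.20 in fed muscle, and that of starved over fed was -0.06 in knockout and -0.11 in control muscle. Endothelial RNA was present on every array, as the summed signal of 10 defining markers was 3558.7 in starved knockout, 4252.6 in starved control, 3511.6 in fed knockout and 4455.1 in fed control muscle, and none of the 10 was at 0. Without replicates, the spread at hand is the disagreement among probe sets for 1 gene. Their log2 ratio of starved over fed had an SD of 0.37 in either genotype for genes with signals of 100 to 300 and of 0.32 for genes of 300 to 1000. This spread is technical and holds no difference between mice.

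On starvation the vessel genes did not move as a block. In knockout muscle 0 of the 37 rose and 4 fell (Angpt1, Apln, Aplnr and Kdr), and in control muscle 2 rose (Cldn5 and S1pr1) and 6 fell (Angpt1, Aplnr, Kdr, Mcam, Sox7 and Sox18). Among all genes, 5.52% rose and 7.89% fell in knockout muscle and 7.64% rose and 12.9% fell in control muscle, beside 0% and 10.8% of the members in knockout and 5.41% and 16.2% in control muscle, so the members' counts lie near the background. The members' median log2 ratio was -0.04 in knockout muscle, beside -0.06 over all genes (0.01 for the members under either rescaling of the arrays), and -0.20 in control muscle, beside -0.11. Angpt1, Aplnr and Kdr, 3 members in all, fell in both genotypes. With the arrays set to the same median, or quantile normalized, the same members rose and fell.

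**Figure D2:**
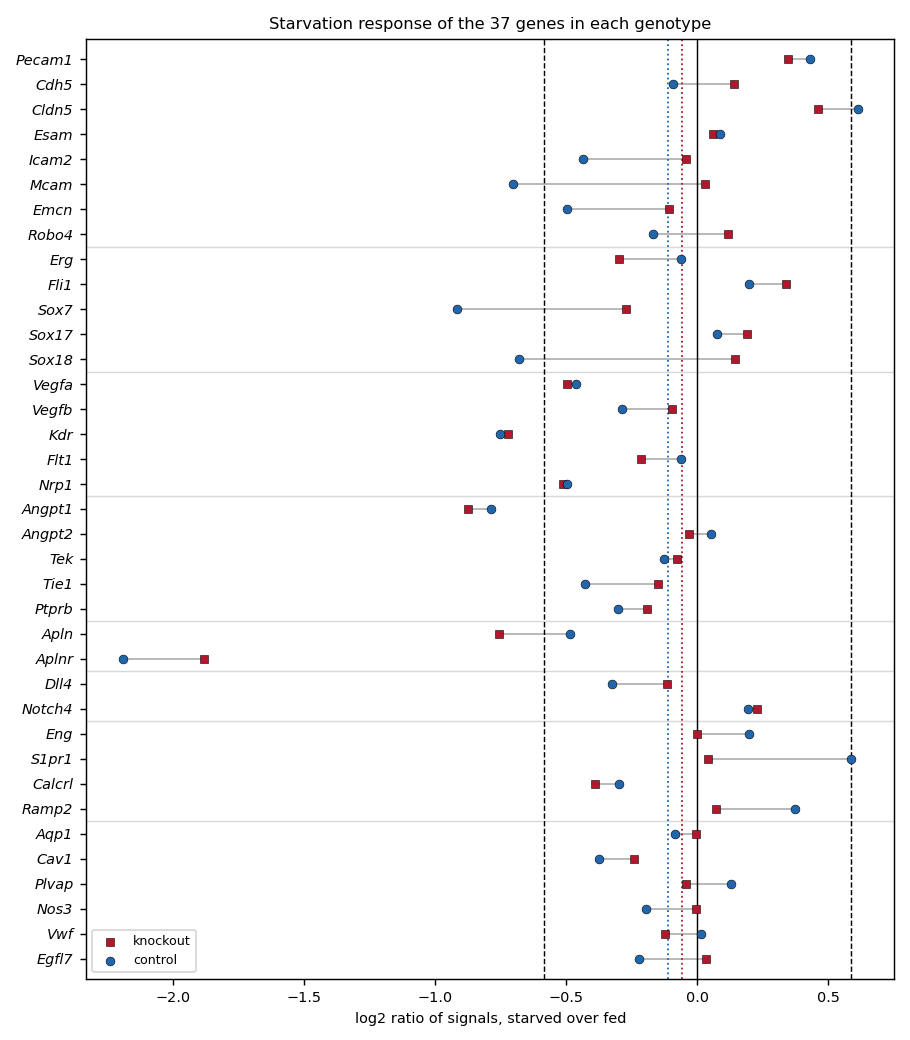
Log2 ratio of starved over fed signal for each of the 37 genes, with red squares for knockout and blue circles for control and a grey line joining the pair. Dashed lines mark 1.5-fold and dotted lines the medians over all genes; Aplnr lies at -1.88 in knockout and -2.19 in control muscle, apart from every other member in both.

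The apelin receptor gave the widest change among the members. Aplnr, which encodes the G protein-coupled receptor of apelin, was at 198.3 in starved knockout, 224.0 in starved control, 730.8 in fed knockout and 1024.5 in fed control muscle. Its signal was 3.69-fold lower in starved than in fed knockout muscle and 4.57-fold lower in starved than in fed control muscle (log2 ratios -1.88 and -2.19). Both starved arrays thus lay far below both fed arrays. A dimmer probe set of Aplnr showed the same order of feeding, with 38.8 in starved knockout, 58.7 in starved control, 79.3 in fed knockout and 147.5 in fed control muscle, and log2 ratios on starvation of -1.03 in knockout and -1.33 in control muscle. Apln, the gene of the ligand apelin, was dim, at 43.4 in starved knockout, 47.5 in starved control, 73.4 in fed knockout and 66.5 in fed control muscle. Its log2 ratio on starvation was -0.76 in knockout muscle, past the threshold, and -0.49 in control muscle, short of it. At signals under 100 the SD between probe sets of the same gene was 0.52 for the knockout ratio and 0.43 for the control ratio. Ligand and receptor were therefore both lower on the starved arrays of either genotype, and only Aplnr lay several such SDs from 0.

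Of the VEGF pathway the 37 genes hold Vegfa, Vegfb, Kdr, Flt1 and Nrp1. All 5 had a log2 ratio on starvation below 0 in both genotypes, with medians of -0.50 in knockout and -0.46 in control muscle; after quantile normalization Flt1 turned above 0 in control muscle and the other signs were kept. VEGF genes of the wider list described further on went both ways. Vegfc was at -0.25 in knockout and -0.65 in control muscle, and Vegfd at 0.21 in knockout and 1.79 in control muscle. Kdr, which encodes VEGFR2, the main signalling receptor of VEGF-A, was at 204.7 in starved knockout, 218.4 in starved control, 338.2 in fed knockout and 368.1 in fed control muscle. That is 1.65-fold lower in starved knockout muscle and 1.69-fold lower in starved control muscle than in fed muscle of the same genotype, and the log2 ratios of -0.72 and -0.75 differed by 0.03. Nrp1, the co-receptor neuropilin 1, stopped short of the threshold at log2 ratios of -0.51 in knockout and -0.50 in control muscle. Its 4 probe sets all had lower signals on the starved arrays, between -0.58 and -0.44 in knockout and between -0.75 and -0.44 in control muscle. Vegfa, the ligand of both, was likewise short, at 412.2 in starved knockout, 474.6 in starved control, 581.2 in fed knockout and 653.8 in fed control muscle (log2 ratios on starvation of -0.50 in knockout and -0.46 in control muscle). On these probe sets the 3 genes gave nearly the same ratio in the knockout as in the control, but a dimmer probe set of Vegfa gave -0.37 in knockout and -0.68 in control muscle. Vegfb, a ligand linked to lipid uptake and vessel survival, had log2 ratios of -0.10 in knockout and -0.29 in control muscle. For Flt1, the decoy receptor VEGFR1, the brightest probe set gave -0.21 in knockout and -0.06 in control muscle, but a further one gave 0.29 in knockout and 0.60 in control muscle, so that its direction depends on the probe set.

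Angpt1, the TIE2 ligand, also fell in both genotypes. It was at 134.8 in starved knockout, 165.1 in starved control, 247.1 in fed knockout and 285.3 in fed control muscle, which is 1.83-fold lower on starvation in knockout and 1.73-fold lower in control muscle. A dim probe set of the gene, with signals between 14.4 and 26.4, had log2 ratios of -0.71 in knockout and -0.70 in control muscle. Angpt2, the context-dependent antagonist of the same receptor, did not share this pattern, at 80.2 in starved knockout, 71.0 in starved control, 81.9 in fed knockout and 68.5 in fed control muscle. The TIE2 gene Tek itself was at 394.2 in starved knockout, 517.5 in starved control, 416.3 in fed knockout and 565.5 in fed control muscle, with small starvation ratios of -0.08 in knockout and -0.13 in control muscle. For Tek the 2 knockout arrays lay below the 2 control arrays. Its log2 ratio of knockout over control was -0.39 in starved and -0.44 in fed muscle, beside -0.16 and -0.20 over all genes. Ptprb, the endothelial phosphatase that restrains TIE2, had starvation ratios of -0.19 in knockout and -0.30 in control muscle.

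**Figure D3:**
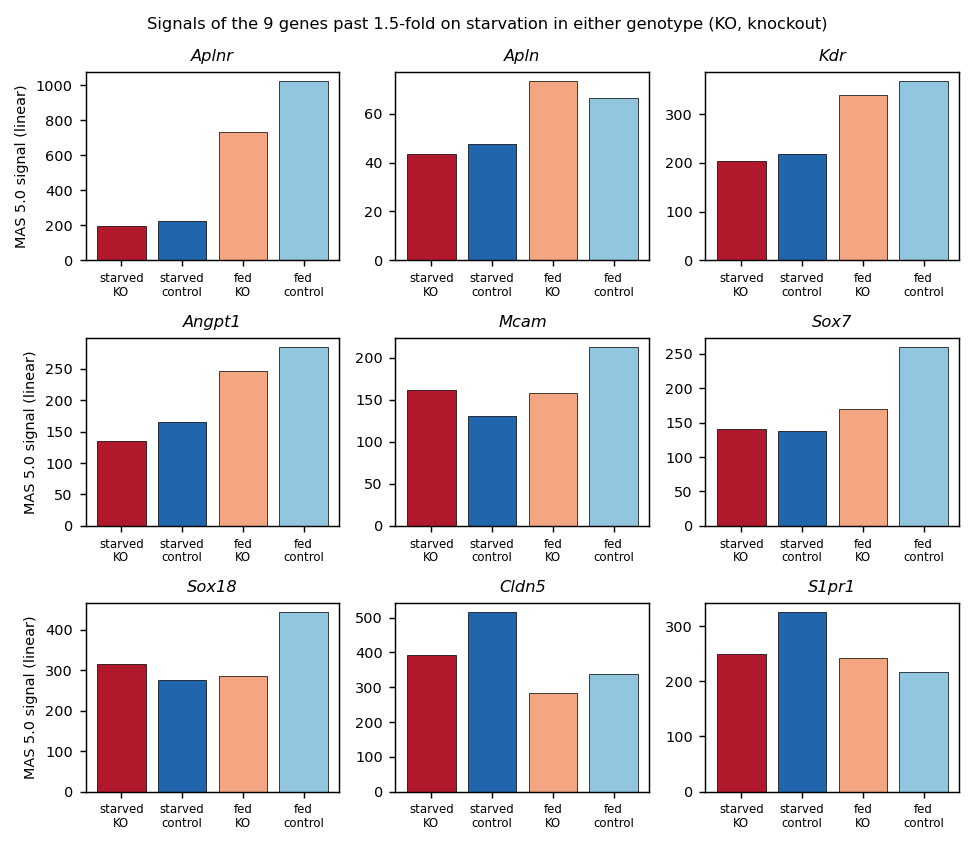
MAS 5.0 signal on a linear axis from 0, 1 bar per pooled array, for the 9 genes past 1.5-fold on starvation in knockout or control muscle. Aplnr, Kdr and Angpt1 are lower on the starved arrays of both genotypes, whereas Mcam, Sox7 and Sox18 are highest on the fed control array alone.

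The genes that fell past 1.5-fold in control muscle and not in knockout muscle came from other roles. Sox7 and Sox18, of the SoxF transcription factors that drive arterial, venous and lymphatic differentiation, and Mcam, the surface adhesion molecule CD146 of endothelium and pericytes, had 1 array that stood above the rest, the fed control. Sox18 was at 315.9 in starved knockout, 276.4 in starved control, 286.1 in fed knockout and 443.4 in fed control muscle. Sox7 was at 140.9 in starved knockout, 138.1 in starved control, 170.0 in fed knockout and 260.6 in fed control muscle. Mcam was at 161.3 in starved knockout, 131.0 in starved control, 158.0 in fed knockout and 213.5 in fed control muscle. In control muscle the log2 ratio on starvation was -0.92 for Sox7, -0.70 for Mcam and -0.68 for Sox18, while in knockout muscle it was -0.27, 0.03 and 0.14. The difference of the starvation ratios, knockout minus control, was 0.82 for Sox18, 0.73 for Mcam and 0.65 for Sox7. These 3 members were past 1.5-fold upward in this difference and 0 were past it downward, where 10.3% of all genes passed upward and 8.38% downward. The members' median difference of 0.05 was close to the 0.04 over all genes. Hair shaft markers stood high on the same array and on 1 more: 6 of the 10 hair shaft and epidermis markers, S100a3 and Krt25 among them, were higher on the starved knockout and fed control arrays than on the other 2. Their summed signal was 1422.6 in starved knockout, 35.4 in starved control, 90.6 in fed knockout and 897.7 in fed control muscle, and that of the other 4 was 581 in starved knockout, 632.5 in starved control, 897.8 in fed knockout and 267.5 in fed control muscle. The part of such RNA in the values of Sox7, Sox18 and Mcam was not tested. The SD of such a difference of starvation ratios between probe sets of the same gene was 0.44 at the signals of Sox18 and 0.50 at those of Mcam and Sox7. Sox17, the third SoxF gene, did not follow, at 421.9 in starved knockout, 472.9 in starved control, 369.9 in fed knockout and 448.6 in fed control muscle.

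Higher signals on starvation were fewer. Cldn5, the claudin of endothelial tight junctions, was at 392.2 in starved knockout, 515.9 in starved control, 284.8 in fed knockout and 337.5 in fed control muscle. It was 1.53-fold higher in starved than in fed control muscle and 1.38-fold higher in knockout muscle, where it did not reach the threshold. S1pr1, the sphingosine 1-phosphate receptor that stabilizes endothelial junctions, was at 249.6 in starved knockout, 325.4 in starved control, 242.8 in fed knockout and 216.5 in fed control muscle. Its ratio of 1.50 in control muscle only just met the threshold, and in knockout muscle the ratio was 1.03. Pecam1, the pan-endothelial adhesion molecule CD31, leaned the same way as Cldn5, at 307.4 in starved knockout, 382.4 in starved control, 242.1 in fed knockout and 283.8 in fed control muscle, with ratios of 1.27 in knockout and 1.35 in control muscle. Cdh5, which encodes VE-cadherin of the adherens junction, was at 579.4 in starved knockout, 617.4 in starved control, 525.2 in fed knockout and 658.5 in fed control muscle and showed no common direction. Among the 10 defining endothelial markers, Pecam1, Cldn5 and Esam were thus higher on the starved arrays of either genotype as deposited. Kdr, Tek, Tie1, Emcn and Erg were lower on them in either genotype, and Cdh5 and Egfl7 differed in direction between genotypes. Of these markers only Kdr passed 1.5-fold in both genotypes.

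The other junction and surface genes stayed under 1.5-fold on starvation. Esam, an adhesion molecule of tight junctions, had log2 ratios of 0.06 in knockout and 0.09 in control muscle. Robo4, a guidance receptor of quiescent vessels, was at 0.12 in knockout and -0.17 in control muscle. Emcn, the sialomucin of capillaries and veins, was at -0.11 in knockout and -0.50 in control muscle, and Icam2, an adhesion molecule for leukocytes, at -0.04 in knockout and -0.44 in control muscle. Of the 8 genes of this role, 6 were above 0 in knockout muscle and 3 in control muscle; Icam2 turned above 0 in knockout muscle at the same median, which makes 7. Among transcription factors, Erg, an ETS factor that maintains endothelial identity, was at -0.30 in knockout and -0.06 in control muscle and Fli1, another ETS factor, at 0.34 in knockout and 0.20 in control muscle. For the Notch pathway, Dll4, the tip cell ligand, was dim and at -0.11 in knockout and -0.32 in control muscle, and the endothelial receptor Notch4 was at 0.23 in knockout and 0.19 in control muscle. These 4 genes thus kept 1 direction in both genotypes, except Erg after quantile normalization, with ratios short of the threshold.

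Receptors of other pathways were as small in their ratios. Tie1, the orphan partner of TIE2, was at -0.15 in knockout and -0.43 in control muscle. Eng, the TGF-beta co-receptor endoglin, was at -0.00 in knockout and 0.20 in control muscle, with a dimmer probe set at -0.23 in knockout and -0.36 in control muscle. The adrenomedullin receptor Calcrl was at -0.39 in knockout and -0.30 in control muscle, whereas Ramp2, the accessory protein that gives it this specificity, was at 0.07 in knockout and 0.37 in control muscle. The receptor and its partner thus differed in direction in either genotype. Of the genes of transport, vessel tone and secreted products, the water channel Aqp1, the caveolae protein Cav1, the fenestral diaphragm protein Plvap, the nitric oxide synthase Nos3, the clotting factor Vwf and the secreted regulator Egfl7 lay between -0.24 and 0.03 in knockout and between -0.37 and 0.13 in control muscle. In all, 20 members were below 0 in both genotypes and 8 above 0 in both, and with the arrays set to the same median these became 17 and 11.

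The promoters of the starvation responders are shown because the data group them by direction. Of the 9 members past 1.5-fold on starvation, Kdr, Mcam and Apln (lower) and Cldn5 (higher) had an entry in the RefSeq promoter table of build GRCm38.p6; Aplnr, Angpt1, Sox7, Sox18 and S1pr1 did not. Each sequence is the 250 bases before the start of the gene, read 5′ to 3′ on the gene's strand, and capitals mark a match to a motif.
Kdr (chr5:75978456-75978705, minus strand): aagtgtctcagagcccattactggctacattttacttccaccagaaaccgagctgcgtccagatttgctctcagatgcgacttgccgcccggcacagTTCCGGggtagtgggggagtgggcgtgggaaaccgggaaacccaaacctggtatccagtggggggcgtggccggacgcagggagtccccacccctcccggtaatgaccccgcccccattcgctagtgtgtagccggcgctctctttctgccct
Mcam (chr9:44134408-44134657, plus strand): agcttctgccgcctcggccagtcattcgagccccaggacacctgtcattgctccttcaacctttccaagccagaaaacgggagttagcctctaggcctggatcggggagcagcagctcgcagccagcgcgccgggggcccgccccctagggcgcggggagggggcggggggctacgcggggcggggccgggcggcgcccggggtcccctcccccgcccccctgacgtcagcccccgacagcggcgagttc
Apln (chrX:48034854-48035103, minus strand): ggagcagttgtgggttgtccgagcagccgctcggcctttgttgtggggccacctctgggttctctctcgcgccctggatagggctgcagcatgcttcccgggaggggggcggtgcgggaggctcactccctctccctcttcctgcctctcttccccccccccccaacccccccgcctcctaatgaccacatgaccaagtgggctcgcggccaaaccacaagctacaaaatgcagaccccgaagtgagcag
Cldn5 (chr16:18776597-18776846, plus strand): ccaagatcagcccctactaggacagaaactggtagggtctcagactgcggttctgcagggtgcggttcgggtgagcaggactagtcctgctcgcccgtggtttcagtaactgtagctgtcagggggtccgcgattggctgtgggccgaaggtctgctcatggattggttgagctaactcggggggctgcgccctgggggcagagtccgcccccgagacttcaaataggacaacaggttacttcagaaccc
The motifs searched on both strands were GTAAACA (FoxO), ACGTG (hypoxia factor), CCGGAA (ETS) and ACAATG (SOX), none of which overlapped another in these 4 sequences. The capitals in Kdr are CCGGAA read on the opposite strand, 153 bases before the start, and the other 3 sequences held no match. Over the 20 members with a promoter in the table, GTAAACA was in 0, ACGTG in 2 (Cav1 and Vegfa), CCGGAA in 1 (Kdr) and ACAATG in 3 (Calcrl, Erg and Notch4). Among all 32851 promoters of this length, 3.17% held GTAAACA, 16.6% ACGTG, 12.0% CCGGAA and 10.7% ACAATG. These shares count each promoter on its own, whereas a member counted if any of its promoters matched. The GC content was 61.6% for Kdr, 73.6% for Mcam, 65.2% for Apln and 59.6% for Cldn5, above the median of 52.4% over all promoters. A match is a description of letters and says nothing of binding.

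Between genotypes, most members were dimmer in the knockout, as were most genes. In starved muscle 0 of the 37 rose and 0 fell, where 4.77% of all genes rose and 13.1% fell; the members' median log2 ratio of knockout over control was -0.21, beside -0.16 over all genes. In fed muscle 0 rose and 4 fell (Icam2, Sox7, Sox18 and Tie1), where 1.91% of all genes rose and 9.49% fell, and the median was -0.30, beside -0.20. The count of 4 is 10.8% of the members and lies near the background. With the arrays set to the same median, or quantile normalized, 0 of the 37 fell in fed muscle. Of the 37, 31 were lower in the knockout in both feeding states as deposited, but only 19 were at the same median, so that the direction of single members here rests largely on the scale of the arrays.

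**Figure D4:**
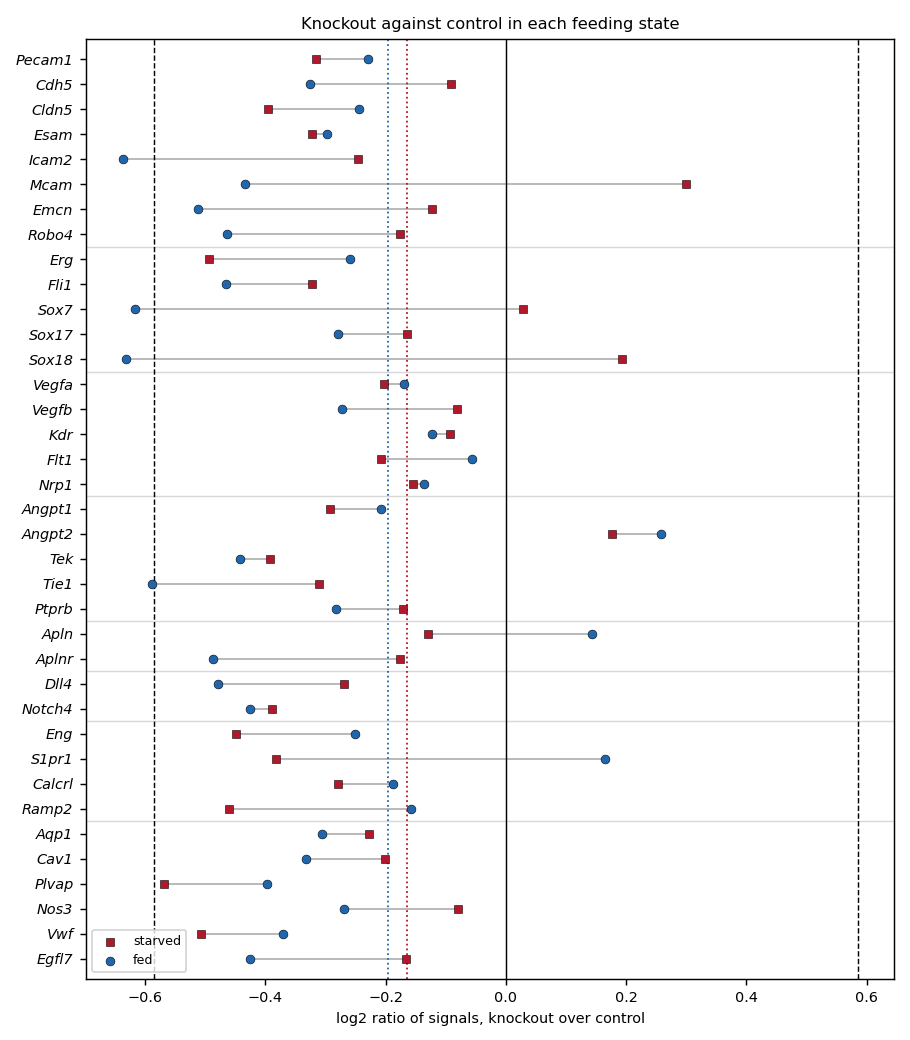
Log2 ratio of knockout over control signal for each of the 37 genes, with red squares for starved and blue circles for fed muscle. Dashed lines mark 1.5-fold and dotted lines the medians over all genes (-0.16 starved, -0.20 fed); Icam2, Sox7, Sox18 and Tie1 lie past the line in fed muscle, and 28 members lie below the fed median.

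Read against the median of all genes on the brightest probe sets, the roles differed in fed muscle. All 8 junction and surface genes lay below the all-gene median of knockout over control. So did all 5 transcription factors and all 6 genes of transport, tone and secreted products. The same held for 2 of 2 Notch genes and 4 of 5 genes of angiopoietins and Tie receptors. Of the other receptors 1 of 4 lay below it, of the apelin pair 1 of 2, and of the 5 VEGF ligands and receptors 1. These counts were the same after quantile normalization. Setting the arrays to the same median shifts every ratio alike and cannot change them. The VEGF count rests on the brightest probe sets. The other probe sets of Flt1 were between -0.35 and -0.30, that of Vegfa at -0.61 and those of Nrp1 between -0.48 and -0.17, beside -0.20 over all genes. Icam2 was at 150.1 in fed knockout and 233.4 in fed control muscle, and at 145.5 and 172.6 in starved knockout and starved control muscle. Tie1, at 77.4 in fed knockout and 116.4 in fed control muscle, passed the threshold by the least margin with a ratio of 0.665, and it was at 69.7 and 86.4 in starved knockout and starved control muscle. Emcn (log2 ratio -0.51), Aplnr (-0.49), Dll4 (-0.48), Fli1 (-0.47) and Robo4 (-0.46) came next in fed muscle without reaching 1.5-fold. The SD of the fed genotype ratio between probe sets of the same gene was 0.46 at signals under 100, where Tie1 and Dll4 lie. It was 0.33 at signals of 100 to 300 (Icam2 and Robo4) and 0.28 at 300 to 1000 (Emcn, Aplnr and Fli1). Such single ratios are of the order of this spread. In starved muscle 5 of 8 junction and surface genes, 2 of 5 transcription factors and 5 of 6 genes of the transport group lay below the all-gene median. So did 4 of 5 genes of angiopoietins and Tie receptors, 4 of 4 other receptors, 2 of 2 Notch, 2 of 5 VEGF and 1 of 2 apelin genes. Of all 37 members, 25 lay below it in starved and 28 in fed muscle. Mcam (0.30), Sox18 (0.19), Angpt2 (0.18) and Sox7 (0.03) were higher in the starved knockout. The lowest genotype ratio in starved muscle was that of Plvap, at 393.2 in starved knockout and 583.1 in starved control muscle (log2 ratio -0.57), followed by Vwf at 320.5 and 455.5 (-0.51) and Erg at 113.3 and 159.6 (-0.49). For Plvap, Vwf and Erg the knockout was also lower in fed muscle, at 405.4 against 533.9, at 349.3 against 451.6 and at 139.4 against 166.8.

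Further probe sets bear on how far single values can be read. Of the 37 genes 17 have several probe sets, and for 11 of these at least 2 reached the median signal. The probe sets past that limit agreed in sign for 11 of the 11 genes in the fed genotype ratio, for 10 in the starved genotype ratio (not Cdh5), and for 8 in each starvation ratio (not Cdh5, Egfl7 and Flt1 in knockout and not Egfl7, Eng and Flt1 in control muscle). Dimmer probe sets can differ, as 1 of Ptprb with signals of 1.2 to 14.4 did in every ratio. For Aplnr, Nrp1, Angpt1 and Vegfa all probe sets had lower signals on the starved arrays of both genotypes.

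Genes of other cell types moved as well, and their part in the results above was not tested. The summed signal of 12 mural cell markers was 13754.9 in starved knockout, 15781 in starved control, 15883 in fed knockout and 18074.3 in fed control muscle. For 8 fibroblast markers it was 21332 in starved knockout, 23133 in starved control, 27776.8 in fed knockout and 31182.6 in fed control muscle, so that fibroblast markers were lower on both starved arrays, with median log2 ratios of -0.37 in knockout and -0.43 in control muscle. The 8 macrophage markers summed to 4297.8 in starved knockout, 5785.9 in starved control, 4590.9 in fed knockout and 5830.5 in fed control muscle. The 10 muscle fibre markers summed to 131463 in starved knockout, 124090 in starved control, 130206 in fed knockout and 133372 in fed control muscle; most of them are among the brightest probe sets of the arrays, where a signal can be near its ceiling, so that their steadiness cannot be read as that of the RNA. The median genotype ratio of the 10 endothelial markers was -0.31 in starved and in fed muscle, beside the all-gene medians of -0.16 starved and -0.20 fed. That of the mural cell markers was -0.32 in starved and -0.22 in fed muscle, and that of the macrophage markers -0.44 in starved and -0.32 in fed muscle. The fibroblast markers were at -0.13 in starved and -0.16 in fed muscle and the Schwann cell markers at -0.09 and -0.04, above the all-gene medians. The endothelial and macrophage lists thus lay below the all-gene median in both feeding states. The 4 adipocyte markers lay lower still, at -0.74 in starved and -0.63 in fed muscle. The mural cell list and the 6 lymphatic markers (-0.34 starved, -0.21 fed) lay below it in starved muscle and near it in fed muscle. Of the smaller lists, the sum of 6 lymphatic markers lay between 942.6 (starved knockout) and 1275.5 (fed control), of 4 adipocyte markers between 3417.7 (starved knockout) and 5820.3 (starved control), and of 4 Schwann cell markers between 4983.1 (starved knockout) and 5969.1 (starved control). The sum of 3 red cell markers was between 70.6 (fed knockout) and 163.5 (starved control), and that of 10 hair shaft and epidermis markers was 2003.6 in starved knockout, 667.9 in starved control, 988.4 in fed knockout and 1165.2 in fed control muscle.

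**Figure D5:**
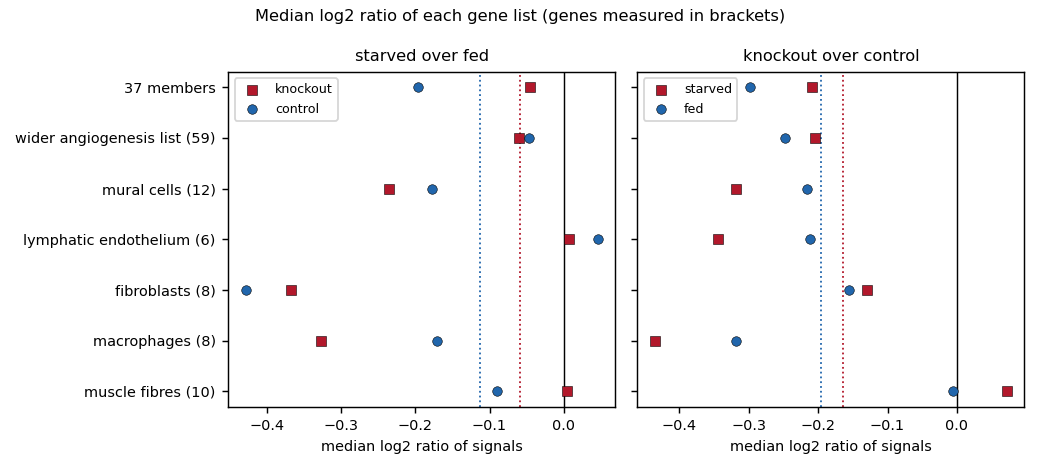
Median log2 ratio of signals for each gene list, starved over fed on the left (red squares knockout, blue circles control) and knockout over control on the right (red squares starved, blue circles fed), with bracketed numbers of measured genes. Dotted lines are the medians over all genes; the muscle fibre list lies nearest 0 in fed muscle on the right (-0.01), while the macrophage list is the lowest of the 7 lists drawn in starved muscle (-0.44).

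A wider list of 59 measured endothelial, VEGF, Notch and vessel growth genes outside the 37 held genes past 1.5-fold in both directions on starvation. In knockout muscle 4 rose and 6 fell, and in control muscle 8 rose and 9 fell, with medians of -0.06 in knockout and -0.05 in control muscle. This is 6.78% up and 10.2% down in knockout and 13.6% up and 15.3% down in control muscle, beside 5.52% and 7.89% of all genes in knockout and 7.64% and 12.9% in control muscle. The falls include dim genes that the shares of all genes leave out, Fgf2 and Gja5 in knockout and Esm1 and Fgf2 in control muscle. The shares down are therefore not on the same footing. At the same median the falls numbered 4 in knockout and 7 in control muscle, and after quantile normalization 4 and 5. Thbs1 and Tmem100 rose in both genotypes under each of these scales. Thbs1, which encodes the angiogenesis inhibitor thrombospondin 1, was at 276.3 in starved knockout, 195.0 in starved control, 63.8 in fed knockout and 97.4 in fed control muscle. Tmem100, a target of BMP signalling in endothelium, was at 848.9 in starved knockout, 752.9 in starved control, 267.8 in fed knockout and 284.2 in fed control muscle, while its dim second probe set, between 23.4 and 54.2, gave a log2 ratio of only 0.11 in knockout muscle. Vegfd, a ligand of lymphatic growth, stood out on the starved control array, at 324.8 against 93.7 on the fed control array, while the knockout had 119.0 starved and 103.0 fed. Its other probe sets showed the same array on top. Apold1, an immediate early gene of endothelium, had this pattern too, at 60.2 in starved knockout, 160.5 in starved control, 56.5 in fed knockout and 62.7 in fed control muscle. Between genotypes 0 of the 59 rose in either feeding state, and 11 fell in starved and 5 in fed muscle. That is 18.6% and 8.47% of the list, beside 13.1% and 9.49% of all genes. These falls include dim genes that the shares of all genes leave out: Hey2 in starved muscle, and Esm1, Fgf2 and Hey2 in fed muscle. Under either rescaling 2 rose (Esm1 and Thbs1) and 6 fell in starved muscle, and 0 rose and 3 fell in fed muscle. Esm1 is dim, at 14.1 in starved knockout and 10.4 in starved control muscle. For Thbs1 the starved genotype ratio as deposited was 0.50 on the brightest probe set and -0.43 on another.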

How the data were processed

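Total RNA of 6 gastrocnemius muscles of 3 mice was pooled per condition and hybridized to 1 Affymetrix Mouse Genome 430 2.0 array. The authors summarized each probe set into a MAS 5.0 signal, and the deposited values are such intensities on a linear scale. Affymetrix Expression Console is named in the submitters' processing notes, and the scaling target is not given in the sources used here. Signals were used as deposited. Of 45037 probe sets without Affymetrix controls, 34945 have 1 gene in the platform annotation, 932 have several and 9160 have no entry; 34741 symbols were brought up to date with the RefSeq table of GRCm38.p6. The brightest probe set by mean signal stood for a gene, and shares over all genes used genes whose mean signal reached 24.4, the median probe set. Ratios of signals were taken as log2, with a signal of 0 set to 0.1. A dimmer array lowers every ratio in which it stands on top, so the medians over all genes are given beside those of the members.

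All members are accounted for. Those past 1.5-fold in a comparison and the defining endothelial genes Pecam1, Cdh5, Kdr, Tek and Cldn5 are given on all arrays. Further lists name up to 4 genes by largest ratio. Other genes were singled out after their values were seen: Plvap, Vwf, Erg, Vegfa, Vegfc, Angpt2, Sox17, S100a3 and Krt25. So were the dim genes of the wider list and the genes of the closing section outside the members. Members and lists were chosen with earlier results of these data known. Alternatives were array scaling, an offset of 16, the choice of probe set, a 2-fold threshold and the filter on dim genes; shares of all genes under rescaling were added after seeing the data. The ratio step was tested on simulated data. Python 3.11.15, numpy 2.4.6, pandas 2.3.3 and matplotlib 3.10.9 were used. With 1 array per condition the number of arrays limits the precision.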

Additional observations from a re-analysis of the deposited data

Results flagged for a closer look

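Genes are given here because their starvation ratios pointed in opposite directions in the genotypes, differed by at least 1.5-fold, and passed 1.5-fold in at least 1 genotype; with 1 array per condition these differences were not tested. Sox18 had log2 ratios of starved over fed of 0.14 in knockout and -0.68 in control muscle, a difference (knockout minus control) of 0.82. Mcam had ratios of 0.03 in knockout and -0.70 in control muscle, a difference of 0.73. Klf2, the flow-responsive transcription factor of endothelium and a gene of the wider list, had ratios of -0.16 in knockout and 1.05 in control muscle, a difference of -1.22, from signals of 327.4 in starved knockout, 649.2 in starved control, 366.2 in fed knockout and 312.7 in fed control muscle. Klf4, its relative, had ratios of -0.03 in knockout and 0.61 in control muscle, a difference of -0.64; its ratio in knockout muscle turned to 0.03 with the arrays set to the same median. The signs of Sox18, Mcam and Klf2 were kept under that scaling and under quantile normalization.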

How the results depend on the processing

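No paired analysis was possible because each condition has 1 array. Of 130 alternatives to the counts, medians and shares, 96 stayed within 1.5 times the count or 0.1 log2 of the median and 34 did not. The members' median on starvation in knockout muscle stayed within 0.1 but turned sign, at 0.0107 at the same median and 0.0104 after quantile normalization, and under both the starved genotype share of all genes turned to more up than down. The count of members that fell in fed knockout against fed control muscle became 0 at the same median, 0 after quantile normalization, 2 with an offset of 16 and 0 at 2-fold. At the same median the members' median genotype ratio was -0.0252 in starved and -0.154 in fed muscle, and after quantile normalization -0.0446 and -0.108. On starvation the members that rose in control muscle numbered 1 with the offset (S1pr1 was lost) and 0 at 2-fold, and those that fell numbered 1 in each genotype at 2-fold (Aplnr). With the mean over probe sets, 1 member rose in knockout muscle on starvation (Notch4) and 2 in fed knockout over control (Angpt2 and Ptprb). With probe sets of the plain type, 1 rose on starvation in knockout muscle (Calcrl), 1 rose in starved knockout over control (Calcrl) and 1 fell there (Aplnr). With no filter on dim genes, the shares of all genes up and down were 15.05% and 16.37% on starvation in knockout muscle, 16.36% and 19.69% in control muscle, 13.22% and 21.13% for the starved genotype ratio and 11.36% and 18.77% for the fed one; keeping genes bright on any array gave 3.332% up for the fed genotype ratio. At the same median the genotype shares were 8.132% up and 6.831% down in starved and 3.075% up and 5.453% down in fed muscle, and after quantile normalization 8.201% and 6.745%, and 3.446% and 4.583%. Signal over background limits Apln, Dll4, Tie1 and Angpt2, the dimmest members.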

Other observations

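A pair of genes of capillary lipid handling in the wider list had higher signals on the starved arrays of both genotypes; they were picked after their values were seen. Cd36, the fatty acid translocase of endothelium and muscle fibres, was at 4967.0 in starved knockout, 5308.1 in starved control, 2760.4 in fed knockout and 3174.4 in fed control muscle. Gpihbp1, which carries lipoprotein lipase to the capillary lumen, was at 1883.9 in starved knockout, 2070.8 in starved control, 1153.7 in fed knockout and 1383.9 in fed control muscle. The log2 ratios of starved over fed were 0.85 in knockout and 0.74 in control muscle for Cd36, and 0.71 in knockout and 0.58 in control muscle for Gpihbp1.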
